A study of Mus musculus with 2 samples.

Results

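Gene deserts are long stretches of the genome without protein-coding genes, and 13004 open chromatin sites in the deserts of mouse chromosomes 1 to 19 are described here. A site was a DNase-seq peak of replicate 1 that overlapped a peak of replicate 2 by 1 bp or more, lay outside every protein-coding gene body of GENCODE release M21 and was over 200 kb from any protein-coding transcription start site (TSS). The 13004 sites were 8.60% of the 151215 replicate 1 peaks with a partner in replicate 2, called shared peaks here. Replicate 1 held 203095 peaks on these chromosomes and replicate 2 held 223678. The peaks came from whole B6NCrl mouse embryos of 10.5 days, healthy, both sexes pooled, with no other treatment or allele in the labels. The 2 biological replicates formed 1 group, and the labels give both the same donor entry. They do not say whether the replicates came from separate litters. Each peak is 150 bp wide and carries a whole-number score deposited by the authors, called strength here, with no definition given and no value over 149 on these chromosomes. Coordinates are on mm10, which is GRCm38.

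The enzyme DNase I cuts chromatin preferentially in stretches free of nucleosomes, and a peak marks such an open stretch. Many deserts flank genes that control development, and open sites within them can be enhancers, DNA elements that raise transcription of a gene far away along the chromosome. Deletions and rearrangements in the deserts beside SOX9 in humans are known to disturb jaw and sex development while leaving the coding sequence intact. A whole embryo mixes many cell types, and a site open in few cells cannot be told apart from one that is weakly open in many.

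The sequences of 8 desert sites are given first, on the forward strand of the reference, because they include the strongest, the farthest and examples beside well-known developmental genes. The first 3 are among the strongest sites of all deserts. Capitals mark CCAAT, or ATTGG on the other strand, in the sites between Npvf and Nfe2l3, and GGGAANTGT in the site between Eipr1 and Myt1l.
Npvf to Nfe2l3, chr6:51178596-51178745: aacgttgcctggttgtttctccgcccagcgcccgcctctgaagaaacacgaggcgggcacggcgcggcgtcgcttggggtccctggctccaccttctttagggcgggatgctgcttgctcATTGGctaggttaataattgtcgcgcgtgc
Npvf to Nfe2l3, chr6:51172996-51173145: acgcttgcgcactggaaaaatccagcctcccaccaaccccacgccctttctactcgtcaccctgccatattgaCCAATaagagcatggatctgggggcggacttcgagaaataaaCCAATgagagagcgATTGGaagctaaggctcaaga
Eipr1 to Myt1l, chr12:29291096-29291245: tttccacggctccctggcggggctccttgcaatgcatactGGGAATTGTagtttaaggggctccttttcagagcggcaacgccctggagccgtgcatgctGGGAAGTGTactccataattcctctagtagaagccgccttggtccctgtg

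The next 3 sites lie in deserts beside genes of developmental transcription factors. Those beside Sox9 and Sox2 were picked for holding the most kinds of motif among the 10 strongest sites there, and that beside Nr2f2, with strengths of 95 and 123 at 479 kb from a TSS, is the strongest beside that gene. The strongest Sox2 site, chr3:35088396-35088545 (106 and 120), held none of the motifs marked here. Capitals mark CAGCTG, an E-box bound by basic helix-loop-helix factors, TGACAG, a motif of the TALE homeodomain factors, TGATTNAT, a joint motif of HOX and PBX proteins, TTGGCA, a motif of NFI factors, and ATTGG.
Sox9 to Slc39a11, chr11:113046316-113046465: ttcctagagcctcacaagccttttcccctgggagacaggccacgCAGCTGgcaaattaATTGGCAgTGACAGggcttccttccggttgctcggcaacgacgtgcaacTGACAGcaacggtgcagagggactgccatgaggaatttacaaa
Sox2 to Atp11b, chr3:35405116-35405265: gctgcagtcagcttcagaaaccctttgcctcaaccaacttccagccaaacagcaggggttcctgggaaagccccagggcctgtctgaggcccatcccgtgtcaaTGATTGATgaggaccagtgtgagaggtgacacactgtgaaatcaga
Nr2f2 to Gm10295, chr7:70846136-70846285: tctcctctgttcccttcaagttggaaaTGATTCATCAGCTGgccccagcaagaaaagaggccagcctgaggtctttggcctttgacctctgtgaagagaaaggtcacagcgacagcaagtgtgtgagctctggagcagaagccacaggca

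The last pair shows the site farthest from any TSS, with CATCTG (an E-box), TGACAG and GGAATG (a motif of TEAD factors) or their reverse complements in capitals, and a strong site with a match to the core motif of CTCF, a zinc finger protein that anchors chromatin loops.
Pcdh20 to Pcdh9, chr14:91151556-91151705: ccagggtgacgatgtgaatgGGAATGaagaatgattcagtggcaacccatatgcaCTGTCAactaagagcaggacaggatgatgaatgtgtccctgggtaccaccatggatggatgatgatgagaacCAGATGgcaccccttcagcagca
Jag1 to Btbd3, chr2:137942876-137943025: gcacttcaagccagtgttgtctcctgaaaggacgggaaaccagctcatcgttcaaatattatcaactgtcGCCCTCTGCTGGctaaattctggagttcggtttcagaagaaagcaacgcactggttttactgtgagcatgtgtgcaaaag

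Deserts were sparsely open but rarely empty. The chromosomes held 845 deserts, which made up 508.9 Mb of sequence without assembly gaps, or 21.2% of the total. A desert here is the part of the gap between neighbouring protein-coding genes, or between the first or last gene and the chromosome end, that is over 200 kb from every TSS. Of these deserts 761 (90.1%) held at least 1 site. The 84 empty deserts had a median length of 51.6 kb, against 395.5 kb for those with a site. Of the 318 deserts of 500 kb or more, 1 was empty.

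Deserts held 37.8 peaks per Mb in replicate 1 and 38.6 in replicate 2, a mean of 38.2 ± 0.545 (SD, n = 2). Intergenic sequence nearer to genes held 76.7 and 85.4 peaks per Mb, a mean of 81.0 ± 6.16 (SD, n = 2). The gap between these classes was wider than the spread between replicates, although with 2 replicates an exact two-sided sign-flip test cannot give a p below 0.5, so no test is reported. For shared peaks the density was 25.6 per Mb in deserts, against 57.1 in nearer intergenic sequence, 58.5 in gene bodies and 367 within 1 kb of a TSS. The total number of peaks was 1.10 times as high in replicate 2 as in replicate 1 over all locations, and 1.02 times as high in deserts.

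Desert peaks were shared between replicates in 67.6% of replicate 1 and 66.8% of replicate 2. Over all locations 74.5% of replicate 1 peaks and 67.7% of replicate 2 peaks were shared. In nearer intergenic sequence 74.4% and 67.0% were shared. Among peaks of strength 40 to 59, 92.6% of replicate 1 and 82.0% of replicate 2 desert peaks were shared, against 89.6% and 69.4% of nearer intergenic peaks. Among peaks of strength 20 to 29 the desert shares were 45.8% and 29.7%, against 47.2% and 24.9%, so at low strength the replicates pointed in opposite directions. Each of the 5 strongest unshared desert peaks of either replicate lay 10 to 210 bp from a peak of the other and inside its hotspot, the wider region of cutting that the authors also called.

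Desert sites were weaker than other shared peaks in both replicates. Their median strength was 39 in replicate 1 and 47 in replicate 2, against 47 and 58 in nearer intergenic sequence, 45 and 56 in gene bodies and 67 and 84 at promoters. The desert medians averaged 43 ± 5.66 and the nearer intergenic medians 52.5 ± 7.78 (SD, n = 2 each). Within a replicate, desert minus nearer intergenic was -8 in replicate 1 and -11 in replicate 2, of the order of the shift between replicates. The medians of all 4 classes were higher in replicate 2, so these SDs do not measure the spread of the gap. Strengths of 100 or more were reached by 1.55% of desert sites in replicate 1 and 3.07% in replicate 2, against 3.68% and 8.99% of nearer intergenic shared peaks. Strength in replicate 2 over replicate 1 had a median log2 ratio of 0.24 (SD over sites 0.31) in deserts and 0.26 (SD over peaks 0.30) among all shared peaks. All desert sites lay in a hotspot of replicate 1 and 99.7% in a hotspot of replicate 2. Their hotspots had median widths of 275 and 300 bp. By the rule each site overlaps a peak in both replicates. No hotspot share or width is given here for other shared peaks, so neither can be called particular to deserts.

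**Figure D1:**
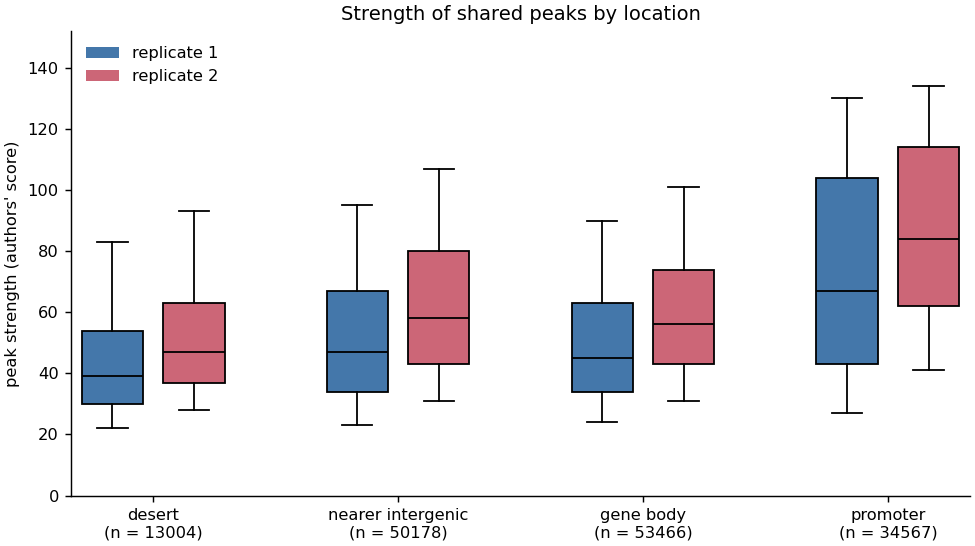
Strength (authors' score, no unit) of shared peaks in deserts, nearer intergenic sequence, gene bodies and promoters, for replicate 1 (blue) and replicate 2 (red); boxes span the quartiles with the median as a line, and whiskers span the 5th to 95th percentiles over peaks. The desert medians of 39 and 47 are the lowest of the 4 classes in each replicate.

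The decline in peak density with distance from genes continued through the deserts. Between 190 and 200 kb from the nearest TSS there were 42.8 shared peaks per Mb, and between 200 and 210 kb there were 37.5. The density was 31.8 per Mb at 300 to 400 kb, 20.5 at 500 to 750 kb, 9.52 at 1000 to 1500 kb and 8.33 beyond 1500 kb. Median strength in replicates 1 and 2 was 40 and 49 at 190 to 200 kb, 42 and 51 at 200 to 210 kb and 35 and 42 beyond 1500 kb. Mean GC content of the sites was 48.5% at 200 to 210 kb and 44.4% beyond 1500 kb. The peaks just inside the threshold, 200028 to 200083 bp from the TSSs of Ttc32, Galc, Nxpe4, Cdc5l and Rps15a, had replicate 1 strengths of 20 to 68. The peaks just outside it, 199859 to 199904 bp from those of Clnk, Ankrd55, 4931417E11Rik, Dlgap1 and Rpl38, had strengths of 31 to 102.

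The median distance from a TSS was 349 kb. Of the sites, 3400 (26.1%) lay over 500 kb and 651 (5.01%) over 1000 kb away. The farthest was the site printed above between the protocadherin genes Pcdh20 and Pcdh9, at 2680 kb from a TSS, with strengths of 54 and 60. Both strengths were above the desert medians. Its desert was the longest of all at 4342 kb and held 49 sites, or 11.3 per Mb.

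**Figure D2:**
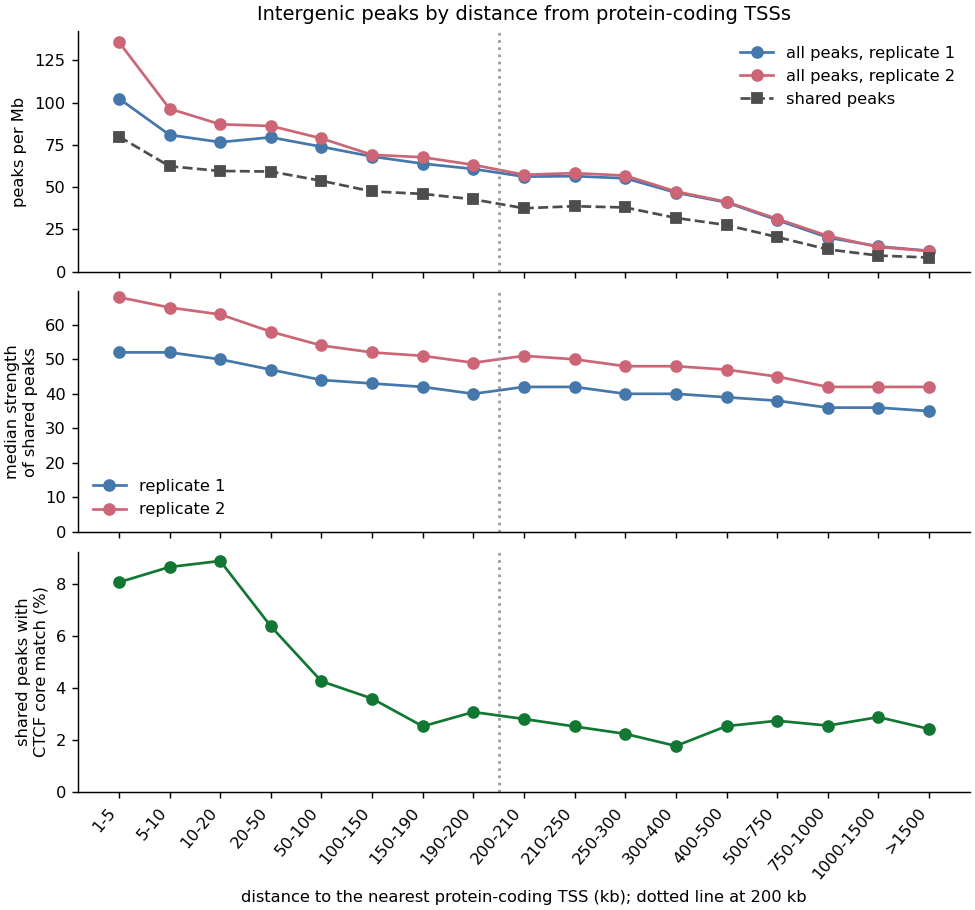
Intergenic peaks by distance to the nearest protein-coding TSS (kb, unequal bins): peaks per Mb for each replicate and for shared peaks (top), median strength of shared peaks (middle) and share of shared peaks with a CTCF core match (bottom). Density declines on both sides of the 200 kb line, and the CTCF share is 8.88% at 10 to 20 kb and stays between 1.77% and 2.88% inside deserts.

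Open sites were uneven among deserts. Over the 318 deserts of 500 kb or more, the median density was 18.2 sites per Mb, with a 10th percentile of 5.53 and a 90th percentile of 59.4. The 135 deserts with most sites held 50% of all sites on 34.7% of the desert sequence. Across the 318 deserts of 500 kb or more the densities of all peaks in replicate 1 and replicate 2 had a Spearman correlation of 0.966, which is a description over deserts that share both libraries. Richer deserts had more GC and fewer repeats, with Spearman correlations of density of 0.628 with GC content and -0.736 with repeat content over the same deserts. In those of highest GC content, of 3 equal classes, the median density was 44.5 sites per Mb, in the middle class 16.2 and in the lowest 9.44.

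The desert between Zfp608 and Gramd3 held the most sites, 129 on 1008 kb, and with 128 sites per Mb was also the densest of those of 500 kb or more. It held 184 peaks in replicate 1 and 183 in replicate 2. The desert on the other side of Zfp608, a zinc finger gene, ranked among the 10 densest too, with 97.6 sites per Mb.

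The number of sites went with length, with a Spearman correlation of 0.687 over the deserts. The desert between Zeb2, a transcription factor of neural crest and nervous system, and the activin receptor gene Acvr2a (chr2:45117396-48814108) held 109 sites. The one beside Nr2f1, an orphan nuclear receptor of brain patterning (chr13:78199758-80883383), held 102, with 134 peaks in replicate 1 and 170 in replicate 2. The desert between Tmem182 and Pou3f3, a POU factor of neural progenitors (chr1:40856888-42695767), held 96. The deserts of the membrane protein gene Flrt2 (101 sites), the ephrin receptor gene Epha4 (87), the ephrin gene Efnb2 (85) and the latrophilin gene Adgrl2 (76) were among the 10 with most sites. Their densities were 29.3, 61.0, 27.1 and 37.1 sites per Mb in that order, against 25.6 over all desert sequence. The desert between Kcnj2 and Sox9, described further on, held 89. The remaining one of the 10 lay between Nmbr and Cited2, a transcriptional coactivator gene, with 81 sites. The desert between Npvf and Nfe2l3, described further on, also held 76 and tied with Adgrl2 to Adgrl4 for rank 10.

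High densities in deserts of 500 kb or more were found beside the coregulator gene Zmiz1 (123 sites per Mb), the T-box factor gene Tbx3 (115), Jarid2, a partner of Polycomb repressive complex 2 (114), the gene pair Kif2a and Ndufaf2 (96.4), the nuclear receptor gene Nr2f2 (92.3), the guidance gene Rgma (91.2), Prdm2 (82.5) and the basic helix-loop-helix factor gene Tcf4 (79.8). These deserts were picked as the densest, so their place above the 90th percentile of 59.4 follows from the choice. The strongest site between Kif2a and Ndufaf2, chr13:107831316-107831465, had strengths of 123 and 124. By RefSeq annotation it lay 58599 bp from the start of Zswim6, a gene called protein-coding there. That start lies in the same stretch between Kif2a and Ndufaf2, so the site and the density of this desert hold by GENCODE M21 only.

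**Figure D3:**
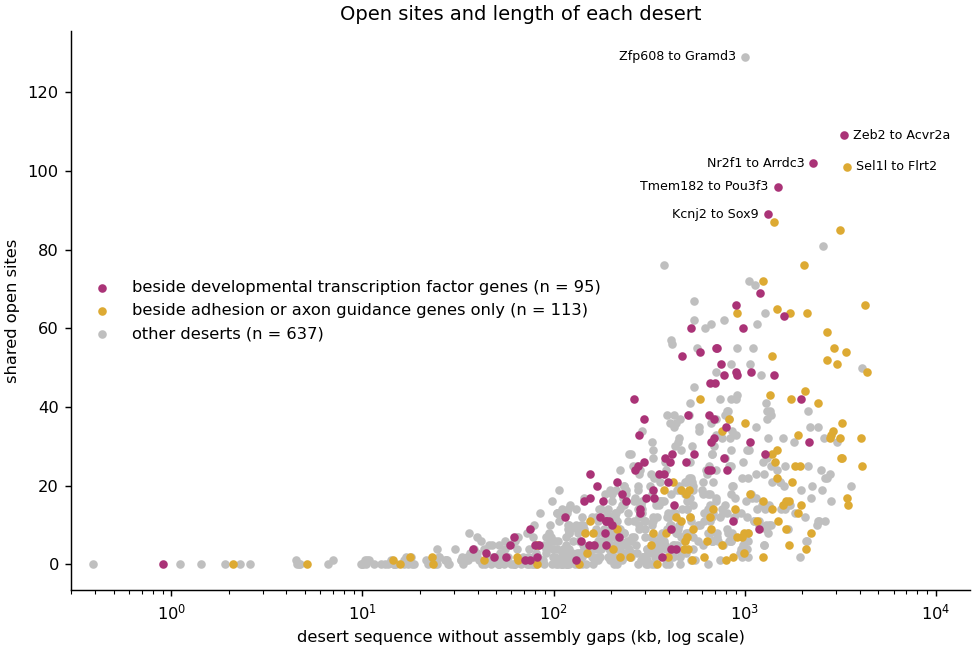
Number of shared open sites (vertical axis) and length without assembly gaps (kb, log scale, horizontal axis) of each of the 845 deserts, coloured by the flanking gene lists. The desert between Zfp608 and Gramd3 stands highest with 129 sites. Among deserts of 200 kb or more the median density is 53.9 sites per Mb beside developmental transcription factor genes (purple). It is 14.0 beside all adhesion and axon guidance genes (yellow). The lists were chosen with earlier results of these data known.

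Both deserts beside Sox9, which directs cartilage and neural crest development, were rich. The one between Kcnj2 and Sox9 (chr11:111076822-112782223) held 89 sites, or 67.6 per Mb, and the short one between Sox9 and Slc39a11 held 42 sites on 263 kb, or 160 per Mb. The strongest site between Kcnj2 and Sox9, chr11:112501916-112502065, lay 280 kb from the Sox9 TSS with strengths of 122 and 121 and held an AP-1 motif (TGANTCA). The site of Sox9 to Slc39a11 printed above had strengths of 106 and 117 and lay 264 kb from the Sox9 TSS. Beside Sox2, a factor of neural progenitors, the deserts held 55 sites towards Atp11b (78.2 per Mb) and 20 towards Dnajc19 (118 per Mb). The printed Sox2 site had strengths of 101 and 115 and lay 349 kb from the TSS of Atp11b, 685 bp from that of the noncoding RNA gene Gm38512 in RefSeq.

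Deserts beside Sox11, a factor of early neurons, held 53 sites towards Cmpk2 (113 per Mb) and 48 towards Dcdc2c (62.0 per Mb). Irx1, an Iroquois homeodomain gene, had 55 sites on the side of Adamts16 and 24 on the side of Irx2. Densities were lower beside Myc, the proto-oncogene, with 36.2 per Mb towards A1bg and 33.8 towards Gsdmc, and beside the growth factor gene Bmp2, with 38.8 and 34.9. Dach1, a nuclear cofactor gene of limb and eye, had 29.0 per Mb towards Klhl1 and 35.3 towards Rpl36a-ps1. The desert towards Rpl36a-ps1 had 17 peaks in replicate 1 and 28 in replicate 2. All of these densities lay above the median of 22.9 over the 551 deserts of 200 kb or more.

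Deserts beside a list of 160 developmental transcription factor genes, of which 156 were found by symbol, had more sites per Mb than deserts in general. This and the other gene lists were chosen with earlier results of these data known, so comparisons with all deserts are descriptions only. The 66 such deserts of 200 kb or more had a median density of 53.9 sites per Mb, against 22.9 over all 551, and 57 of the 66 lay above the median of all. In all peaks of each replicate the medians were 84.1 and 83.1 per Mb beside these genes, against 34.1 and 36.6 over all deserts. Together the 95 deserts of the list held 19.8% of the sites on 10.2% of the desert sequence. The median GC content was 40.3% in the 66 deserts, against 38.7% in all 551. Within 3 equal classes by GC content the medians were 31.0 beside the list and 11.3 over all deserts in the lowest class, 41.8 and 21.4 in the middle and 65.2 and 53.1 in the highest, so the list stood above the whole in each class.

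Deserts beside genes of signalling molecules had a median of 32.0 sites per Mb over 23 deserts of 200 kb or more, 17 of them above the median of all. Within the 3 classes by GC content used above their medians were 27.6 against 11.3 over all deserts in the lowest class, 23.97 against 21.4 in the middle and 38.8 against 53.1 in the highest. The direction turned in the highest class, but these medians rest on only 5, 9 and 9 deserts in that order. Beside genes of cell adhesion and axon guidance the median was 14.0 over 97 deserts of 200 kb or more, 27 of them above the median of all. These deserts had a median GC content of 37.5%. Within 3 equal classes by GC content their medians were 10.7 against 11.3 over all deserts in the lowest class, 19.7 against 21.4 in the middle and 49.7 against 53.1 in the highest. These rest on 64, 24 and 9 deserts in that order. The 114 deserts of this list held 19.1% of the sites on 29.3% of the desert sequence. Deserts beside olfactory and vomeronasal receptor genes numbered 6, and the 3 of them of 200 kb or more had a median of 28.7. The other 3, Vmn2r45 to Vmn2r40 (42.4 kb), Vmn2r37 to Vmn2r46 (147 kb) and Gvin1 to Olfr693 (63.2 kb), held no peak in either replicate.

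At the other end, the longest desert with no site lay between Gm12887 and 9530002B09Rik, 644 kb with no peak in either replicate and 56.2% repeats. Next came the deserts between the natural killer receptor genes Klra1 and Klra2 (460 kb, no peak in either replicate) and between G6pd2 and Arap2 (404 kb, 1 peak in replicate 1). The desert between the oocyte homeobox genes Obox7 and Obox2 and that between Ube3a and Gm38393, with 70.1% repeats, were empty too. Across the 10 longest empty deserts the replicates held 0 to 4 peaks. Some very long deserts were almost empty. The desert between Ankrd7 and the potassium channel gene Kcnd2 held 2 sites on 1949 kb, and that between Kcnv1 and Csmd3 held 4 on 2100 kb. Both were chosen after their values were seen.

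**Figure D4:**
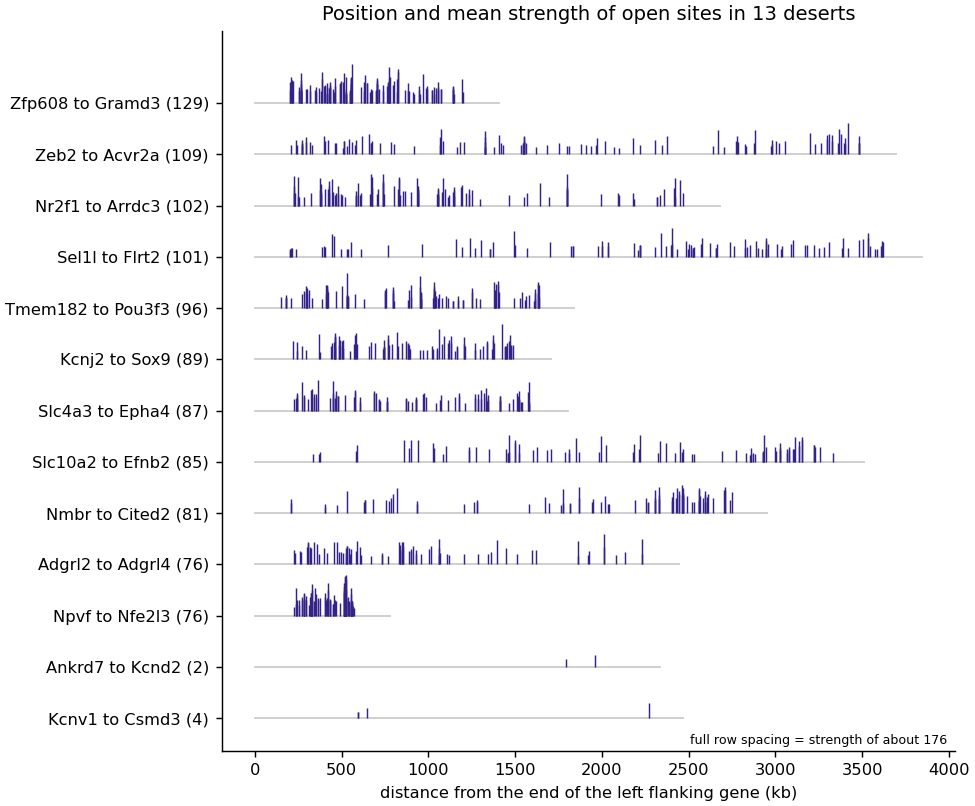
Open sites along 13 deserts: the horizontal axis is the distance from the end of the left flanking gene (kb), each vertical line is a site whose height is its mean strength over the 2 replicates, and the number of sites follows each name. Rows are 10 deserts with most sites, then the compact desert of Npvf to Nfe2l3, whose 76 sites tie with Adgrl2 to Adgrl4 for rank 10. The last rows are the long deserts of Ankrd7 to Kcnd2 and Kcnv1 to Csmd3 with 2 and 4.

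Many sites lay close to another desert site. The next desert site lay within 1 kb for 31.8% of sites and within 5 kb for 52.3%, with a median spacing of 4290 bp. These values count unmerged peaks. No spacing is given here for other shared peaks, so clustering particular to deserts is not shown. Of the sites, 531 overlapped another site. When peaks less than 150 bp apart were merged, 12506 separate sites remained. The 50 kb window with most sites lay between Npvf and Nfe2l3 (chr6:51150001-51200000) and held 21, with median strengths of 54 and 76. A window between Gm21863 and Asap2 (chr12:20200001-20250000) held 19 sites that were weak, with median strengths of 18 and 31, and 5 of them lay in hotspots of 2 kb or more in replicate 1. The next densest windows lay in the deserts of Zfp608 to Gramd3 (17 sites), Mctp2 to Rgma (14) and Kif2a to Ndufaf2 (13).

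Strong sites were few. Only 183 (1.41%) reached 100 in both replicates, against 3.54% of nearer intergenic shared peaks and 8.40% of all shared peaks, and they were spread over 113 deserts. The desert between Npvf, which encodes a neuropeptide precursor, and Nfe2l3, a CNC family factor, stood out with 4 of the 10 strongest. The site chr6:51178596-51178745 had strengths of 139 and 137, chr6:51172996-51173145 had 136 and 137, chr6:51171056-51171205 had 133 and 133, and chr6:51178256-51178405 had 126 and 126. They lay 254 to 261 kb from the TSS of Nfe2l3 and 4610 to 12150 bp from that of Gm32328, the nearest RefSeq gene, a long noncoding RNA. This desert had 201 sites per Mb, the highest density of any desert of 200 kb or more.

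All 4 of these sites held CCAAT, a motif that NF-Y binds at many promoters. The site chr6:51172996-51173145 held it 3 times. These 5 letters were present in 19.9% of desert sites as a whole, against 22.8% of windows 1 kb away and 18.6% of all shared peaks. Among the 183 strong sites 24.6% held it. This motif and GGGAANTGT were chosen after the sequences were seen. GGGAANTGT, part of the recognition motif of ZNF143, stood at 2 places in the site chr12:29291096-29291245 between Eipr1 and the neuronal factor gene Myt1l, which had strengths of 135 and 138. It was present in 0.78% of desert sites and 1.07% of all shared peaks.

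Of the 10 strongest sites, 3 lay within 1 kb of the TSS of a long noncoding RNA gene: Gm26901 (123 and 131), Gm32123 (131 and 123) and Gm4258 (120 and 132).

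Some of the sites lay at the starts of long noncoding RNA genes. In GENCODE M21, 324 sites (2.49%) lay within 1 kb of the TSS of such a gene, and 213 of the 1092 such genes in deserts (19.5%) had a site there. Those sites were stronger, with medians of 49 and 59, against 39 and 47 for the other sites. They also had more GC, with a median of 50%, against 46.7% for the other sites. Among the 183 strong sites 18 (9.84%) lay at such a TSS. In all, 1936 sites (14.9%) lay inside the body of a long noncoding RNA gene. No such shares over other shared peaks are given here, so the 2.49% and 14.9% cannot be called low or high. By RefSeq annotation 9 sites lay within 1 kb of the start of a gene called protein-coding there.

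Strength went with base content. From the weakest to the strongest of 5 equal classes by mean strength, the median GC content was 44.7%, 46.0%, 46.7%, 47.3% and 49.3%, and the ratio of observed to expected CpG 0.152, 0.162, 0.176, 0.198 and 0.242. Sites at a long noncoding RNA TSS made up 1.35% of the weakest class and 4.50% of the strongest. Desert sites as a whole averaged 47.0% GC, against 40.3% in windows 1 kb to each side, 50.4% in nearer intergenic shared peaks and 60.3% at promoters. Repeats covered more than 50% of the bases in 3.16% of desert sites and in 17.3% of the windows.

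Motifs were then counted on both strands of each 150 bp peak. CTCF core matches were scarce in deserts. The core motif was present in 2.37% of desert sites (95% Wilson interval 2.12 to 2.64%), against 6.11% of nearer intergenic shared peaks, 4.44% of all shared peaks and 0.02% of windows 1 kb from the sites. Intervals here cover counting error only and treat peaks as independent. Among all peaks of each replicate the desert shares were 1.67% and 1.76%, against 4.65% and 4.25% in nearer intergenic sequence, a gap far wider than the spread between replicates. Among peaks of 45 to 50% GC the shares were 1.44% and 1.58% in deserts, against 4.18% and 3.66% in nearer intergenic sequence. The CTCF share fell with distance before the deserts began, with 8.88% at 10 to 20 kb from a TSS and 3.07% at 190 to 200 kb.

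The 308 desert sites with a CTCF core match were strong, with median strengths of 53 and 70.5, against 39 and 47 for the others. The printed site between Jag1 and Btbd3 had strengths of 102 and 118. Of the 183 strongest sites, however, 3 held a match. In the strongest of the 5 classes by mean strength 5.88% of sites held one, and in the weakest 1.38%.

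E-boxes were the most frequent of the 22 motifs first listed. CATCTG was present in 22.5% of desert sites, against 10.3% of the windows, 18.9% of nearer intergenic and 17.1% of all shared peaks. CAGCTG was present in 17.6%, against 4.69% of the windows, 16.6% of nearer intergenic and 15.7% of all shared peaks. These hexamers are bound by basic helix-loop-helix factors of neurons and muscle. Over all peaks of replicates 1 and 2 the CATCTG share was 21.4% and 20.3% in deserts and 18.8% and 17.4% in nearer intergenic sequence, so each desert share was above each nearer intergenic share. The CAGCTG shares overlapped, with 16.9% and 15.2% in deserts and 16.5% and 14.7% in nearer intergenic sequence.

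Homeodomain motifs were more frequent in desert sites than in other shared peaks. The HOX-PBX motif TGATTNAT was present in 5.84% of desert sites, against 3.18% of the windows, 3.80% of nearer intergenic and 3.4% of all shared peaks. TGACAG, bound by MEIS and related TALE factors, was present in 16.9%, against 9.18% of the windows, 14.3% of nearer intergenic and 13.8% of all shared peaks. TAATTA, the core of many homeodomain sites, was present in 5.73%, against 6.63% of the windows, 3.99% of nearer intergenic and 3.58% of all shared peaks. TAATTA was therefore less frequent in desert sites than in their own surroundings. The SOX motif ACAATG was present in 12.0%, against 10.2% of the windows, 9.31% of nearer intergenic and 8.53% of all shared peaks.

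Because desert sites held less GC than nearer intergenic peaks, the shares were also compared at like GC content. Among peaks of 45 to 50% GC the TAATTA shares in replicates 1 and 2 were 5.50% and 4.43% in deserts and 4.74% and 4.10% in nearer intergenic sequence, so the ranges overlapped. The TGATTNAT shares were 5.52% and 4.92% in deserts and 4.73% and 3.995% in nearer intergenic sequence, which did not overlap. Those of TGACAG were 17.1% and 16.7% in deserts and 15.4% and 14.6% in nearer intergenic sequence. Those of CATCTG were 22.3% and 21.8% in deserts and 19.8% and 18.3% in nearer intergenic sequence, and those of ACAATG 11.8% and 12.3% in deserts and 10.6% and 10.4% in nearer intergenic sequence. The CAGCTG shares, which overlapped over all peaks, did not overlap at this GC content, with 17.7% and 15.6% in deserts and 15.0% and 13.3% in nearer intergenic sequence, nor at 40 to 45% or 50 to 55% GC. Strength remained lower in deserts at this GC content, with medians of 40 and 48, against 43 and 54.

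For further motifs the shares over sites of any GC content are given first. GGAATG of TEAD factors was present in 11.8% of desert sites, 8.27% of the windows, 11.1% of nearer intergenic and 10.3% of all shared peaks. CAGCAGG, a motif of ZIC factors, was present in 8.43%, against 2.58% of the windows, 9.37% of nearer intergenic and 8.75% of all shared peaks. At 45 to 50% GC the CAGCAGG share was higher in desert sites, 8.50% against 7.80% of nearer intergenic shared peaks. It was also higher at 40 to 45% and 50 to 55% GC. Over all peaks of replicates 1 and 2 the shares overlapped at 45 to 50% GC, with 7.99% and 7.42% in deserts, against 7.55% and 6.75%. They overlapped at 50 to 55% GC too, but not at 40 to 45%, with 5.53% and 5.18% in deserts, against 4.94% and 4.63%. AGATAA of GATA factors was present in 7.67%, against 10.9% of the windows, 6.30% of nearer intergenic and 5.56% of all shared peaks. At 45 to 50% GC the AGATAA share was lower in desert sites, 7.01% against 7.35% of nearer intergenic shared peaks. Over all peaks of replicates 1 and 2 it was 7.29% and 7.16% in deserts there, against 7.63% and 7.67%. It was also lower in desert sites at 40 to 45% GC, 9.40% against 10.1%, but higher at 50 to 55% GC, 5.81% against 5.20%. In that last class the replicate shares overlapped, with 5.84% and 5.46% in deserts, against 5.47% and 5.36%. The ETS motif CCGGAAGT was present in 0.18% of desert sites, against 2.82% of promoter peaks and 0.882% of all shared peaks. TATAAA was present in 7.38% of desert sites and 16.3% of the windows, against 5.02% of all shared peaks, and at 45 to 50% GC in 5.95% of desert sites and 6.0% of nearer intergenic shared peaks. A match describes letters in the window and not binding.

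Among the other motifs, TTGGCA of NFI factors was present in 9.18% of desert sites, against 7.45% of the windows, 7.86% of nearer intergenic and 7.54% of all shared peaks. The LEF/TCF motif ATCAAAG, read by the effectors of WNT signalling, was present in 4.14%, against 2.99% of the windows, 3.12% of nearer intergenic and 2.78% of all shared peaks. Its shares over all peaks of replicates 1 and 2 were 4.24% and 3.98% in deserts and 3.31% and 3.03% in nearer intergenic sequence, which did not overlap. At 40 to 45% GC they did overlap, with 4.34% and 4.17% in deserts and 4.53% and 4.0% in nearer intergenic sequence. Among shared peaks of that GC content the share was lower in desert sites (4.0%) than in nearer intergenic peaks (4.26%). The replicate shares did not overlap at 45 to 50% GC, with 4.13% and 3.85% in deserts, against 3.74% and 3.37%. Nor did they at 50 to 55% GC, with 3.99% and 3.81% in deserts, against 2.85% and 2.86%. TGANTCA of AP-1 was present in 5.71%, against 4.57% of the windows, 5.63% of nearer intergenic and 4.86% of all shared peaks. The FOX motif TGTTTAC was present in 2.29% of desert sites, against 2.50% of the windows, 2.20% of nearer intergenic and 2.01% of all shared peaks. At 45 to 50% GC it was in 2.55% of desert sites and 2.56% of nearer intergenic shared peaks. It was lower in desert sites at 40 to 45% GC (2.80% against 3.24%) and 50 to 55% GC (1.58% against 2.05%). The POU octamer ATTTGCAT was present in 1.41% of desert sites, against 1.36% of the windows, 1.08% of nearer intergenic and 0.985% of all shared peaks. Of the motifs that were rare everywhere, that of GLI (GACCACCCA) was in 43 desert sites (0.331%, against 0.245% of all shared peaks), the paired nuclear receptor motif in 24 (0.185%, against 0.208%), the paired NFI motif in 9 (0.0692%, against 0.0463%), the MEF2 motif in 8 (0.0615%, against 0.0761%) and the NRF1 motif in 3 (0.0231%, against 0.197%).

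**Figure D5:**
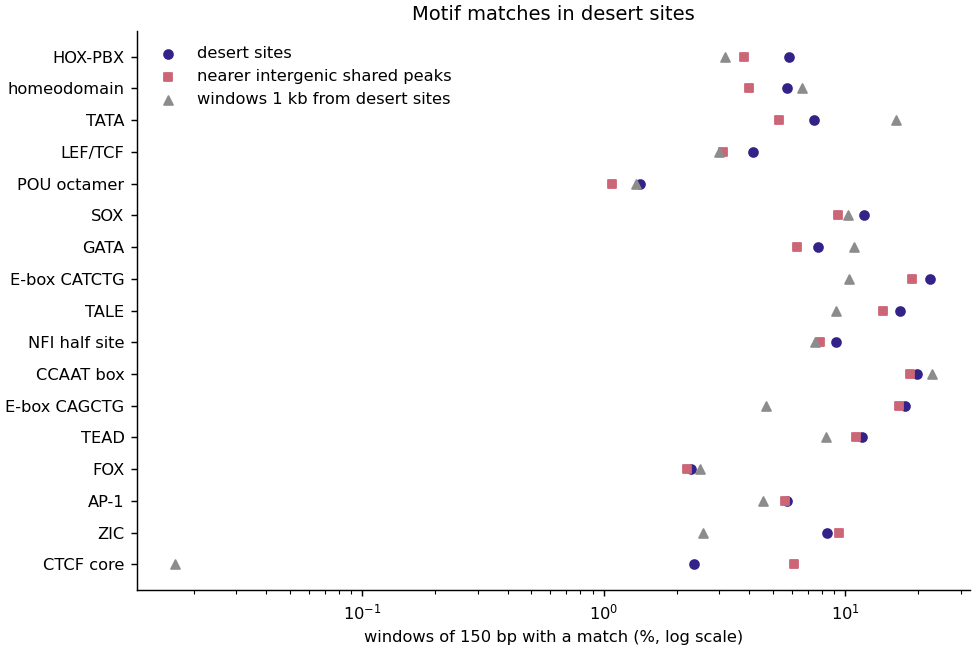
Share of 150 bp windows with each motif (%, log scale) in desert sites (circles), nearer intergenic shared peaks (squares) and windows 1 kb from desert sites (triangles), ordered by the ratio of desert to nearer intergenic share, highest at the top; motifs in under 1% of desert sites are left out. The CTCF core, at the bottom, has the widest gap between desert sites (2.37%) and nearer intergenic peaks (6.11%).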

How the data were processed

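DNase-seq peaks and hotspots of the 2 replicates were used as the authors deposited them, with 1 set of calls per replicate, on mm10 per the labels. Column 7 of the peak files is a whole-number score deposited by the authors with no stated definition, called strength. The hotspot files hold the −log10 of a q-value deposited by the authors, which was not used to filter. For the aligner, the caller and the read depth, nothing is given in the sources used here, so the depth behind a peak is unknown. Repeated lines (28 and 47) and peaks off chromosomes 1 to 19 were dropped.

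Peaks were placed by their whole interval, as promoter (within 1 kb of a protein-coding TSS), gene body, desert or nearer intergenic, against 20807 protein-coding genes of GENCODE M21. Where a peak overlapped several of the other replicate, its partner was the one with the best overlap. Base content and motifs came from the RefSeq GRCm38 sequence, with soft-masked bases counted as repeats. The 22 motifs were searched on both strands, and 2 were added after seeing the data. The CATCTG E-box letters can lie within other motifs, so shares are not independent. The 183 strong sites and the classes by GC content were also chosen after seeing the data. Deserts and sites were named by rank in number, density, length or strength, or beside fixed genes. Some items that this rule takes are not reported here. Of the 71 signalling and 101 adhesion and axon guidance symbols listed, 70 and 95 matched on these chromosomes. The members and lists were chosen with earlier results of these data known.

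Peak placement and sharing were tested on simulated intervals with known answers. No p-value was computed over regions. Python 3.11.15, numpy 2.4.6, pandas 2.3.3 and scipy 1.17.1 were used. Alternatives changed the overlap, the TSS distance, the bounding genes, the peaks kept, merging, assembly gaps, pairing and replicates.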

Additional observations from a re-analysis of the deposited data

How the results depend on the processing

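The number of sites follows from the rule. It was 22675 at over 100 kb from a TSS, 3400 at over 500 kb, 4975 with the stronger 50% of peaks and 770 when deserts were bounded by all GENCODE genes, and deserts with at least 1 site then numbered 1383, 254 and 180 for the distances of 100 and 500 kb and for all genes. With 1 replicate left out, sites numbered 19249 to 19641, since unshared peaks then count, in 788 to 789 deserts. Density per Mb was 23.3 at an overlap of 75 bp, 31.6 at over 100 kb, 15.2 at over 500 kb, 18.1 with all genes, 9.78 with the stronger 50%, 24.6 after merging, 23.0 with assembly gaps counted and 37.8 to 38.6 without either replicate. Median strength over both replicates (43) was 64 with the stronger 50%, 48 for sites of 50 to 55% GC and 33 to 40 without either replicate. The CTCF share was 2.59% at 75 bp, 2.72% at over 100 kb, 2.71% at over 500 kb, 2.73% with all genes, 4.08% with the stronger 50%, 2.45% after merging, 1.96% and 2.53% for sites of 45 to 50% and 50 to 55% GC and 1.67% to 1.76% without either replicate. Median density beside developmental transcription factor genes was 57.3 at over 100 kb and 38.7 at over 500 kb, against 30.8 and 12.5 over all deserts, 56.1 with no minimum length and 83.1 to 84.1 without either replicate, so it stood above all deserts at both distances. The selection by GC content was added after seeing the data. Other settings moved no value by more than the spread between replicates, or a count by more than 1.5 times. No paired analysis was possible because the replicates form 1 group. Sites weaker than the calling threshold could not be seen, and the depth that sets it is unknown.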

Other observations

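In 346 deserts with 40 or more peaks over both replicates, the log2 ratio of replicate 2 to replicate 1 peaks had a median of 0 and ran between -0.95 and 0.89. The deserts at the ends were chosen after their values were seen. Replicate 2 held 47 peaks and replicate 1 held 29 between Pax1 and Foxa2, genes of sclerotome and of endoderm and floor plate. Replicate 2 held 31 and replicate 1 held 17 between Nectin3 and Dppa4. Replicate 1 held 38 peaks and replicate 2 held 23 between Slc8a1 and Pkdcc, and likewise between Trpc7 and Spock1. By chromosome, site density per Mb of desert ranged from 16.3 on chromosome 6 to 40.1 on chromosome 13.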
